A study of Sus scrofa with 24 samples.

Results

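The longissimus dorsi (LD), the long muscle of the loin, of purebred Iberian (IB) pigs was compared between 4 months of age and birth. The libraries were chosen by their labels alone: genetic type pure Iberian and muscle LD, which left 12 of the 24 libraries of the series, 6 from 4-month-old pigs and 6 from newborn piglets. All of these animals were males, and each library came from 1 animal. The 4-month-old pigs had been fed a commercial diet ad libitum and, by the authors' account, were fasted before slaughter. The newborns were labelled both as sampled at birth and as postnatal day 1, and were drawn from a small number of litters, so that some of them were littermates. The other 12 libraries of the series, from Duroc-crossed Iberian (IBxDU) pigs of the same ages, entered only a test of whether the age difference depended on the genetic type. Age, feeding and sampling occasion changed together, and their effects cannot be told apart.

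Skeletal muscle fibres of the pig are mostly formed before birth. After birth they grow in size and mature, as embryonic and foetal contractile proteins give way to adult forms, and each fibre takes on a slow oxidative or a fast glycolytic character set by its myosin heavy chain and its enzymes. The LD of pigs is known as a predominantly fast glycolytic muscle, and the Iberian pig as a slow-growing, fat-depositing breed. The extracellular matrix, vessels, nerves, fat cells and blood within the muscle are sequenced with the fibres, and in such whole-tissue libraries fewer cells of a type and less RNA per cell cannot be told apart.

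Values are RPKM, reads counted per kilobase of gene and relative to the size of the library, rescaled between libraries as described with the processing, and are called scaled RPKM. Where 3 values are given for a group, they are the lowest, the median and the highest of its 6 animals. A log2 difference is 4 months minus birth, on log2(scaled RPKM + 0.1), and is given with its standard error. A gene is called differentially expressed (DE) at p of 0.01 or less and at least a 1.5-fold difference, and adjusted p-values are over all genes tested. The totals from which the RPKM of the IB libraries were computed, recovered from the RPKM steps, lay between 21734611 and 35894968. They are not the numbers of reads sequenced. In 10 of these libraries 88.0% to 96.2% of the total lay in listed genes, against 99.4% in animal 903 at 4 months and 99.3% in newborn 503. Those 2 libraries stood apart: 372 of the tested genes in 903 and 506 in 503 were more than 2-fold above every other animal of their own age, 291 of these genes in both. CD8B, a coreceptor of T cells, had 383 scaled RPKM in 903 and 94.1 in 503, and 0.193 or less in the other 10 libraries. Counts of DE genes in a group without these 2 libraries are given where they moved by over 1.5 times.

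Libraries of the older animals held fewer genes over a fixed limit. Over 0.5 RPKM as deposited lay between 9693 and 10289 genes at 4 months, with a mean of 10021 ± 245 (SD, n = 6), against 11153 to 12325 genes at birth, with a mean of 11570.2 ± 426 (SD, n = 6). Every newborn library held more such genes than every library of the older pigs (difference of means -1549.5 genes, exact two-sided permutation p = 0.00216, the smallest that 6 against 6 allows). On the scaled values the difference was smaller, -575.5 genes, at the same exact permutation p = 0.00216. The 10 most abundant genes took 41.5% ± 1.13 of all RPKM at 4 months and 34.1% ± 3.72 at birth (SD, n = 6 each), a difference of 7.37 percentage points (exact two-sided permutation p = 0.00433). Newborn 330 alone reached into the range of the older pigs, and the other 5 newborns lay below it. The median SD of a gene across animals, on the log2 scale, was 0.285 at 4 months and 0.349 at birth. It was 0.230 and 0.322 without 903 and 503.

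**Figure D1:**
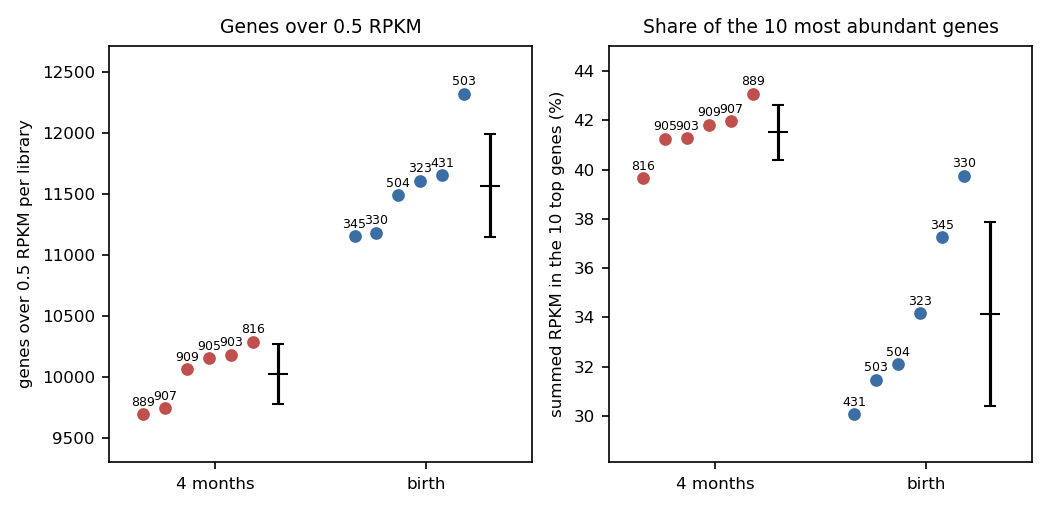
Make-up of the 12 IB libraries, with 4 months left of birth: the number of genes over 0.5 RPKM as deposited and the percent of all RPKM taken by the 10 most abundant genes. Each point is 1 animal, labelled with its number, and the bars give the mean and SD of 6. All newborn libraries hold more genes over the limit, 11153 or more, than any library of the older pigs, which hold at most 10289.

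Expression of a large share of the genes differed between the ages. Of 11634 genes tested, 5055 were DE (43.5%), of which 2443 (21.0%) were higher at 4 months and 2612 (22.5%) higher at birth. At an adjusted p below 0.05, with no fold limit, the counts were 3246 (27.9%) and 3417 (29.4%). The 2 groups of 6 animals did not overlap in 1963 genes (16.9%) that were higher at 4 months and in 1932 (16.6%) that were higher at birth. Differences of 4-fold or more were found in 341 genes higher at 4 months and 266 higher at birth, and of 16-fold or more in 27 and 23. The median log2 difference over all tested genes was -0.06. The balance between the directions depended on the scaling: without it, on the RPKM as deposited, the median was -0.86, and 664 genes were DE higher at 4 months against 6678 higher at birth. The directions below are therefore relative to the bulk of the genes. Where a group of genes is given a pair of counts with no direction, the first is of genes DE higher at 4 months and the second of genes DE higher at birth. Without 903 and 503 the counts were 2427 and 2586.

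**Figure D2:**
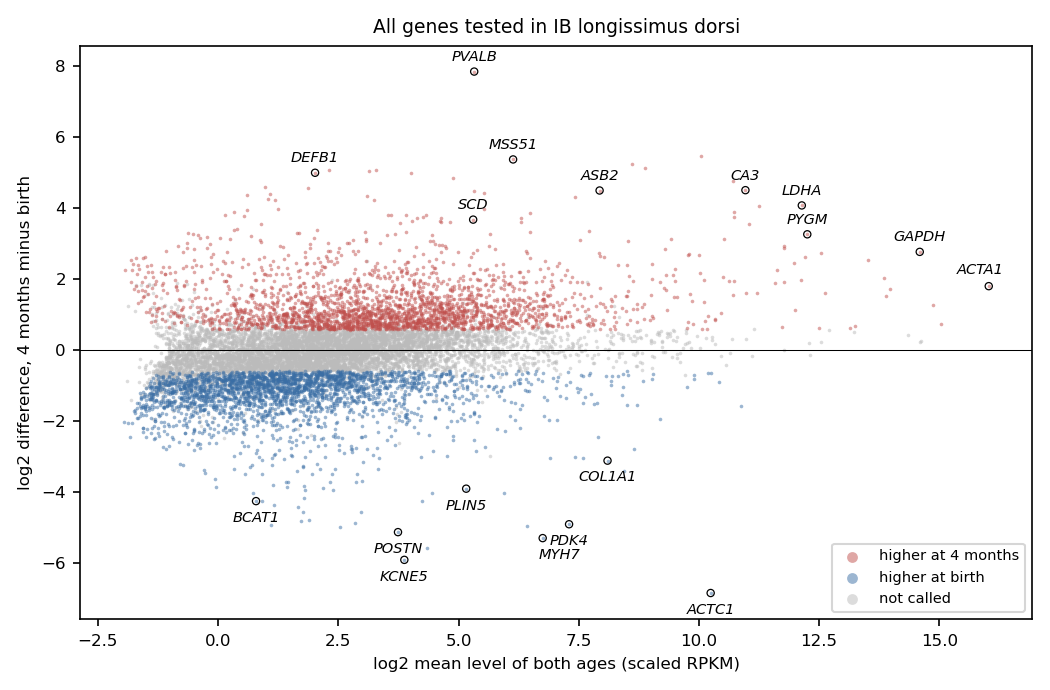
Log2 difference of each of the 11634 tested genes, 4 months minus birth, against the log2 of its mean scaled RPKM over both ages. Coloured points are the DE (called) genes, 2443 higher at 4 months and 2612 higher at birth, and circled points are genes described in the text, PVALB (log2 difference 7.85) at the top and ACTC1 (-6.84) at the bottom.

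Among genes with a symbol and no overlap between the ages, the 15 with the largest positive differences were led by PVALB, parvalbumin, a calcium buffer of fast fibres. It stood at 23.6, 76.9 and 143 scaled RPKM at 4 months, against 0, 0.172 and 1.36 at birth. The lowest older animal was 17.4-fold above the highest newborn, and newborn 504 was at 0 (log2 difference 7.85 ± 0.58, adjusted p = 1.52e-07). MSS51, a mitochondrial protein that in mouse muscle restrains oxidative metabolism, had 86.9, 139 and 194 scaled RPKM at 4 months, against 2.40, 3.23 and 3.87 at birth. The newborns lay in a narrow band far below the older pigs (log2 difference 5.38 ± 0.19, adjusted p = 1.77e-10). SLC22A16, a carnitine transporter, had 14.3, 17.1 and 21.1 scaled RPKM at 4 months, against 0.0726, 0.589 and 0.993 at birth, again without overlap. CA3, the carbonic anhydrase of muscle, was among the most abundant genes of the older pigs, with 2769.7, 3809.9 and 4926 scaled RPKM at 4 months, against 108, 164 and 284 at birth (log2 difference 4.51 ± 0.24, adjusted p = 1.12e-08). The other genes of this group were 3 that act on proteins marked for degradation or on the marking itself, namely the ubiquitin ligase receptors ASB2 (4.50) and FBXO40 (4.43) and the ubiquitin-like modifier UBD (4.40), the phosphatase inhibitor PPP1R14C (4.85), the antimicrobial peptides DEFB1 (5.002) and GNLY (4.57), the enzymes ME1 (4.36), ALDH2 (4.33), NTMT2 (4.23) and LDHA (4.08), and SOWAHB (4.25), each given with its log2 difference. GNLY belongs to T and natural killer cells, whose summed markers are given with the other cell types.

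The largest negative differences were led by ACTC1, cardiac actin, which developing skeletal muscle also uses. It had 13.6, 20.5 and 27.9 scaled RPKM at 4 months, against 1568, 2395 and 3564 at birth. The lowest newborn exceeded the highest older animal 56.3-fold (log2 difference -6.84 ± 0.21, adjusted p = 7.97e-11). KCNE5, an accessory subunit of potassium channels, stood at 0.159, 0.400 and 0.722 scaled RPKM at 4 months, against 23.9, 29.0 and 36.4 at birth, and ARHGAP36, of a family of GTPase-activating proteins, at 0.479, 0.729 and 0.945 scaled RPKM at 4 months, against 28.5, 38.3 and 60.02 at birth. Both were low in every older pig and well expressed in every newborn (-5.91 ± 0.23 and -5.58 ± 0.19 on the log2 scale, with adjusted p = 5.21e-10 and 1.77e-10). DLK1 (ENSSSCG00000028773), an imprinted Notch-like ligand known from muscle overgrowth in callipyge sheep, had 2.78, 4.06 and 6.95 scaled RPKM at 4 months, against 41.2, 166 and 348 at birth, with no overlap although the newborns spanned a wide range. PDK4, the kinase that shuts pyruvate out of the citric acid cycle, had 5.01, 6.82 and 41.4 scaled RPKM at 4 months, against 129, 345 and 461 at birth, and the highest older animal, 816, lay far above its 5 group mates without reaching the newborns. POSTN (-5.12), COMP (-4.79) and COL11A2 (-4.37) belong to the matrix, and CPLX1 (-4.98) acts in vesicle release. The transporter SLC6A13 (-4.93), the RING finger protein RNF207 (-4.80), the hypoxia-inducible factor subunit HIF3A (-4.41), the branched-chain aminotransferase BCAT1 (-4.25) and PRR32 (-4.56) complete the 15 with NPG1, protegrin 1, an antimicrobial peptide of porcine neutrophils. NPG1 was at 0 in all 6 older pigs and at 0.0520, 2.63 and 75.5 scaled RPKM in newborns, with the highest value in 503. Against a floor of 3 reads per library the newborn mean was at least 66.8-fold higher than at 4 months. The newborn mean was 14.4 with 503 and 2.25 without it, and the gene was not DE in a test on the recovered reads.

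The most abundant genes of both ages were those of the contractile apparatus, of glycolysis and of the mitochondrial genome. ACTA1, skeletal actin, was the most abundant, with 83363, 98491 and 121755 scaled RPKM at 4 months, against 16781, 27027 and 56519 at birth. Newborn 330 had by far the highest newborn value, and the groups did not overlap (log2 difference 1.81 ± 0.29, adjusted p = 1.25e-04). GAPDH had 33033, 43909 and 48844 scaled RPKM at 4 months, against 3783, 6361 and 10571 at birth, also with no overlap (2.77 ± 0.21). The light chain MYL11 (1.27), troponin TNNC2 (1.74), tropomyosin TPM1 (2.04) and light chain MYL1 (1.54) were higher at 4 months. With quantile normalization ACTA1, MYL11, TNNC2 and MYL1 were not DE. The mitochondrially encoded COX3 (0.74) and CYTB (0.67) passed the DE limits, whereas ATP6 (0.26), COX1 (0.24), COX2 (0.44) and ND1 (0.52) did not. Over the 13 tested genes of the mitochondrial genome 3 were DE, none of them without 903 and 503. With quantile normalization 10 of the 13 were DE in the other direction, so that no direction can be given for them.

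Most genes of fast fibres were higher at 4 months. Of 14 tested, 13 were DE higher at 4 months and 0 higher at birth, beside 21.0% and 22.5% of all genes, and their median log2 difference was 1.87 against -0.06 over all genes. With quantile normalization the counts were 7 and 1, with a median of 0.60, and without scaling 11 and 1. MYBPC2, fast myosin-binding protein C, had 2846, 2998 and 3535 scaled RPKM at 4 months, against 67.0, 165 and 705 at birth. The older pigs were close together, while newborns 323 and 330 stood well above the other 4 (log2 difference 3.90 ± 0.47, adjusted p = 1.12e-05). TNNC2, the fast calcium sensor of the thin filament, had 22294, 23401 and 28595 scaled RPKM at 4 months, against 5906, 6879 and 10940.4 at birth, with the nearest animals of the 2 groups 2.04-fold apart. MYL1 had 17732, 22827 and 25832 scaled RPKM at 4 months, against 4541, 7882 and 13667 at birth, the newborns falling into 3 high (323, 330, 345) and 3 low animals, all below the older pigs.

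Slow-fibre genes did not move as a group. Of 11 tested, 5 were DE higher at 4 months and 4 higher at birth (median -0.10). Quantile normalization gave 3 and 5. MYH7, the slow myosin heavy chain, had 1.36, 2.18 and 64.3 scaled RPKM at 4 months, against 53.4, 168 and 395 at birth. Animal 905 held the one high value at 4 months and the other 5 had at most 3.59, while newborns 323, 330 and 345 had 250.5 to 395 and newborns 431, 503 and 504 had 53.4 to 84.6 (log2 difference -5.29 ± 0.82, adjusted p = 9.82e-05). CASQ2, the calsequestrin of slow and cardiac muscle, had 5.66, 7.51 and 8.34 scaled RPKM at 4 months, against 104, 117 and 125 at birth, with narrow ranges at both ages (-4.01 ± 0.12). In the opposite direction, the slow troponins TNNC1, TNNT1 and TNNI1 and the slow light chain MYL3 were higher at 4 months. TNNC1 had 4267, 4823 and 5315 scaled RPKM at 4 months, against 962, 1181 and 1949 at birth (1.90 ± 0.18), and the log2 differences of TNNT1, TNNI1 and MYL3 were 1.61, 1.56 and 1.06. Those of TNNT1 and MYL3 were not DE with quantile normalization, nor that of MYL3 without scaling. MYBPC1, slow myosin-binding protein C, had 615, 696 and 862 scaled RPKM at 4 months, against 584, 707 and 1095 at birth, with overlapping ranges and no DE call (-0.10 ± 0.17). Myosin heavy chain genes are near-identical neighbours whose reads the counting could split, and their values are uncertain.

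Developmental contractile genes were divided, with 4 of 13 DE higher at 4 months and 7 higher at birth (median -0.88). MYH3, embryonic myosin, had 8.31, 10.9 and 14.9 scaled RPKM at 4 months, against 34.6, 84.4 and 125 at birth, with no overlap (-2.73 ± 0.29). The gene annotated as MYH8, the perinatal myosin, ran the other way, with 8496, 9052 and 10194 scaled RPKM at 4 months, against 1805, 2815 and 5678 at birth (1.60 ± 0.25), and MYH6, named for the cardiac alpha chain and listed with the slow genes, did the same (2.08 ± 0.23). MYH8 was not DE with quantile normalization. MYH8 is a close relative of the adult fast chains and MYH6 of the slow chain MYH7, and whether reads of such relatives entered them was not tested. Embryonic acetylcholine receptor subunit CHRNG (-2.32) and vimentin VIM (-0.97) were higher at birth, and MYBPH (1.35) and M-cadherin CDH15 (0.86) higher at 4 months. Neither MYBPH nor CDH15 was DE without scaling, nor CDH15 with quantile normalization, where the list counted 1 and 6.

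The Z-disc, M-band and titin system, which anchors and spaces the filaments, was mostly higher at 4 months (15 of 20 DE, 2 DE higher at birth, median 1.16). The counts were 10 and 4 with quantile normalization and 5 and 3 without scaling. TMOD4, which caps thin filaments, had 1158, 1413 and 1891 scaled RPKM at 4 months, against 132, 243 and 385 at birth, and PDLIM3, a Z-disc LIM protein, had 1183, 1829 and 2115 scaled RPKM at 4 months, against 233, 259 and 356 at birth. Neither overlapped between ages (2.70 ± 0.24 and 2.68 ± 0.16). MYOZ1, the calsarcin of fast fibres, which is counted with the fast genes and was not DE with quantile normalization, differed by 1.92, the Z-disc proteins MYPN and MYOT by 1.72 and 1.51, and the small heat shock protein CRYAB by 1.52. The members higher at birth, CSRP3 and ACTN2, were outnumbered. CSRP3, muscle LIM protein, had 67.4, 288 and 416 scaled RPKM at 4 months, against 554, 886 and 1271 at birth (-1.95 ± 0.39, adjusted p = 7.15e-04). ACTN2 (-0.69 ± 0.17) was no longer DE without newborn 345. MYOZ2, the calsarcin of slow fibres, had 129, 187 and 232 scaled RPKM at 4 months, against 296, 367 and 1191 at birth and was counted with the slow genes (-1.26 ± 0.29).

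At the membrane the picture differed. Of 16 genes of the dystrophin complex and costamere, 2 were DE higher at 4 months and 7 at birth (median -0.44). Laminin chains LAMA2 (-1.48) and LAMB1 (-1.45), the dystrophin relative UTRN (-1.21) and DMD itself (-0.81) were higher at birth. SNTB1, a syntrophin, had 26.9, 46.1 and 50.3 scaled RPKM at 4 months, against 8.94, 12.5 and 21.3 at birth (1.70 ± 0.22), and with DYSF (0.85), which takes part in membrane repair, it was higher at 4 months. DYSF was not DE with quantile normalization or without scaling. Genes of the motor endplate were lower at 4 months or not DE: 8 of 13 were DE higher at birth and 0 higher at 4 months (median -1.14). COLQ, the collagen tail that anchors acetylcholinesterase, had 0.108, 0.357 and 0.533 scaled RPKM at 4 months, against 3.84, 6.44 and 11.5 at birth, a separation of 7.20-fold between the nearest animals (-3.94 ± 0.31, adjusted p = 2.46e-07). The receptor subunits CHRND (-2.04) and CHRNB1 (-1.14), the enzyme ACHE (-1.80) and the agrin receptor LRP4 (-1.76) had the same direction.

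Calcium-handling genes that differed were mostly higher at 4 months. Of 20 genes of excitation-contraction coupling, 10 were DE higher at 4 months and 2 at birth (median 0.74), a list that also held the light chain MYL11. Without scaling 4 were DE higher at 4 months and 5 at birth. ATP2A1, the calcium pump of fast fibres, had 5646, 6891 and 9129 scaled RPKM at 4 months, against 968, 1722 and 2801 at birth, and CASQ1, the fast calcium store, had 5986, 6662 and 7927 scaled RPKM at 4 months, against 903, 1152 and 2089.6 at birth. Every older animal exceeded every newborn in both (1.99 ± 0.25 and 2.45 ± 0.20). SLN, sarcolipin, which regulates the pump, had 7113, 7898 and 9427 scaled RPKM at 4 months, against 1022, 1351 and 1613 at birth (2.62 ± 0.14, adjusted p = 1.12e-08). Triadin TRDN (1.92), BIN1 of the T-tubules (1.68), the calcium channel CACNA1S (1.29) and junctophilin JPH1 (1.31) followed, whereas ATP1B1, a sodium pump subunit, was higher at birth (-0.96). CACNA1S, JPH1 and MYL11 were not DE without scaling. Calcineurin and calcium signalling genes counted 13 DE higher at 4 months and 3 at birth of 22 (median 0.83), among the first S100A1 (3.07), calmodulin CALM3 (2.63) and the calcineurin subunit PPP3CB (1.92). Without scaling the list counted 7 and 9 of 23. RCAN1, an inhibitor of calcineurin, had 14.1, 17.1 and 27.8 scaled RPKM at 4 months, against 29.3, 111 and 274 at birth. Newborns 431, 503 and 504 had 189.9 to 274 scaled RPKM of it, and newborns 323, 330 and 345 had 29.3 to 32.4, just above the older pigs (-2.19 ± 0.58). NFATC4, a target of calcineurin, was also higher at birth (-1.91). Potassium channels counted 5 DE higher at 4 months and 10 at birth of 19 (median -0.84), and 3 and 9 of 18 without 903 and 503. KCNN2 had 0.249, 0.302 and 0.373 scaled RPKM at 4 months, against 1.28, 2.95 and 4.29 at birth (-2.70 ± 0.29), while KCNN1 was higher at 4 months (2.86).

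Among 28 myogenic regulators, 9 were DE higher at 4 months and 8 at birth (median -0.16). The shares were 32.1% and 28.6%, against 21.0% and 22.5% of all genes. MYF6, the myogenic factor of mature fibres, had 97.4, 125 and 333 scaled RPKM at 4 months, against 6.61, 32.1 and 99.2 at birth. The highest newborn, 431, lay just above the lowest older pig, and the other 5 newborns lay below all of them (2.29 ± 0.50, adjusted p = 0.0015). SIX2 (2.82), NFIX (1.67), which switches foetal to later myogenesis in mice, and TEAD4 (1.63) were higher at 4 months, and BARX2 (-1.99), MSX1 (-1.64) and HDAC7 (-1.27) higher at birth. MYOD1, MYF5 and MEF2C overlapped between ages and were not DE (-0.60 ± 0.28, -0.30 ± 0.32 and -0.56 ± 0.23). MSTN, myostatin, which restrains muscle mass, had 4.75, 7.83 and 12.6 scaled RPKM at 4 months, against 0.472, 1.15 and 4.89 at birth, the single overlap being newborn 431 against older pig 903 (2.52 ± 0.43, adjusted p = 2.07e-04). FST, its antagonist follistatin, was higher at birth (-0.98 ± 0.20).

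Glycolysis showed one of the largest group differences. Of 27 tested genes, 14 were DE higher at 4 months and 6 at birth (median 1.56). Without scaling the counts were 13 and 12. LDHA, the muscle lactate dehydrogenase, had 6944, 8326 and 9975 scaled RPKM at 4 months, against 206, 405 and 1462 at birth. The lowest older pig lay 4.75-fold above the highest newborn. Of the newborns, 323, 330 and 345 had 1316, 1462 and 544 and the other 3 at most 266 (4.08 ± 0.45, adjusted p = 5.34e-06). PKM, pyruvate kinase, had 4774, 6099 and 7420.3 scaled RPKM at 4 months, against 309, 843 and 1961 at birth and fell into the same high and low newborns (2.93 ± 0.45). PGAM2 (2.75 ± 0.24), ENO3 (2.55 ± 0.27) and PFKM (2.28 ± 0.28), the muscle forms of their enzymes, were without overlap, as were ALDOC (3.13 ± 0.19) and the glycerol 3-phosphate dehydrogenase GPD1 (3.15 ± 0.35). PFKFB3, which makes an activator of phosphofructokinase, had 7.004, 27.8 and 47.1 scaled RPKM at 4 months, against 1.16, 2.10 and 6.08 at birth (3.33 ± 0.43). The 6 higher at birth included PDK4 and the enzyme forms PFKL (-2.01), LDHB (-1.02) and HK1 (-0.67), which are known from other tissues.

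Glycogen metabolism followed, with 10 of 18 DE higher at 4 months and 1 at birth (median 1.15). Without scaling they were 8 and 5. PYGM, the glycogen phosphorylase of muscle, had 7379, 8649 and 10189 scaled RPKM at 4 months, against 356, 952 and 2437 at birth, with newborns 323, 330 and 345 again above 431, 503 and 504 (3.27 ± 0.37, adjusted p = 6.91e-06). PHKA1, the muscle alpha subunit of phosphorylase kinase, had 100.1, 171 and 203 scaled RPKM at 4 months, against 8.19, 14.6 and 32.4 at birth (3.33 ± 0.32). PHKA2, its liver counterpart, was the 1 member higher at birth, with 0.267, 0.323 and 0.420 scaled RPKM at 4 months, against 1.33, 2.14 and 2.998 at birth (-2.33 ± 0.21). PPP1R3D, a glycogen-targeting phosphatase subunit, and GYG1, glycogenin, differed by 2.88 and 1.93. PRKAG3, the AMP kinase subunit of white muscle known for its effect on pork glycogen, had 38.8, 45.7 and 51.0 scaled RPKM at 4 months, against 1.79, 3.31 and 7.38 at birth, the nearest animals of the 2 ages being 5.26-fold apart (3.63 ± 0.28). Its partner PRKAB2 differed by 2.02. Of the creatine and purine genes, 6 of 18 were DE higher at 4 months and 4 at birth (4 and 2 with quantile normalization and 4 and 12 of 19 without scaling), led by GAMT (3.86), AMPD1 (3.09) and AK1 (1.97). Newborns 323, 330 and 345 were thus the highest 3 newborns for LDHA, PKM, PYGM, PFKM, PHKA1, MYL1, MYBPC2 and MYH7. This order was not shared by all genes of these lists. For the slow gene CASQ2 the same newborns were the lowest, at 104 to 114 scaled RPKM against 120 to 125 in 431, 503 and 504. GAPDH was lower in 345 (5462) than in 503 (6557).

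**Figure D3:**
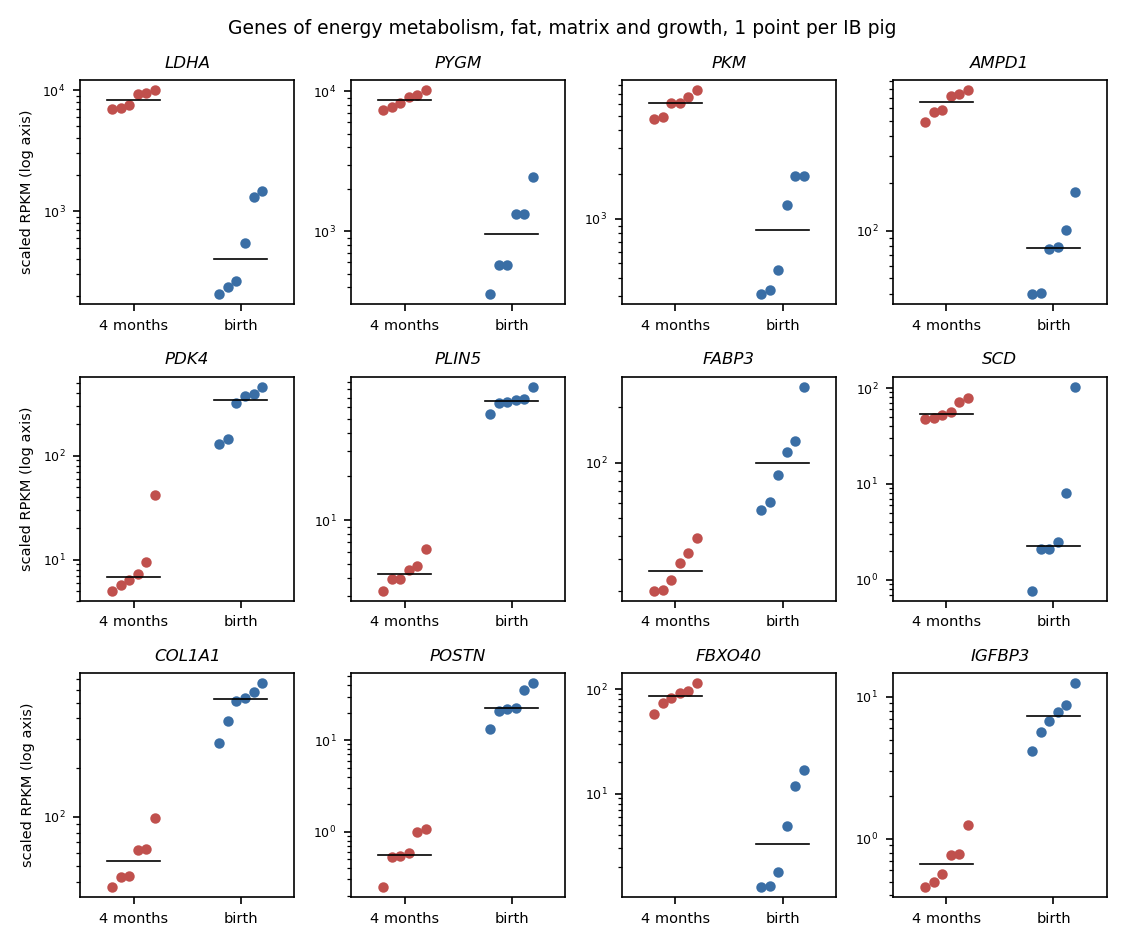
Scaled RPKM of genes of energy metabolism and matrix on a log axis, with 4 months left of birth, 1 point per animal, lines at the medians and the points of a group drawn in order of value. LDHA has medians of 8326 and 405 and PDK4 of 6.82 and 345 at 4 months and at birth, so that the 2 genes run in opposite directions without overlap.

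Oxidative genes that differed were mostly higher at birth. Fatty acid oxidation and uptake counted 20 of 33 DE higher at birth and 1 higher at 4 months (median -0.77). PLIN5, which coats lipid droplets beside mitochondria, had 3.25, 4.23 and 6.35 scaled RPKM at 4 months, against 54.3, 65.9 and 83.3 at birth, with 8.55-fold between the nearest animals of the 2 ages (-3.90 ± 0.16, adjusted p = 7.64e-10), and was counted with the fat genes. ACSL1, which activates fatty acids, had 48.3, 52.6 and 65.0 scaled RPKM at 4 months, against 186, 211 and 236 at birth (-1.96 ± 0.11). FABP3 (-1.95), CPT2 (-1.86), HADHA (-1.07) and ANGPTL4 (-2.42) had the same direction. The 1 member higher at 4 months was CRAT, carnitine acetyltransferase, with 433, 526 and 613 scaled RPKM at 4 months, against 117, 181 and 279 at birth (1.53 ± 0.23).

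Of 41 nuclear genes of the respiratory chain and ATP synthase, 15 were DE higher at birth and 1 at 4 months (median -0.46). With quantile normalization 30 were DE higher at birth and 0 at 4 months. ATP5MC3 had 157, 177 and 189.5 scaled RPKM at 4 months, against 323, 489.7 and 834 at birth (-1.55 ± 0.22), and COX7A2 (-1.41), ATP5F1A (-1.04) and cytochrome c CYCS (-1.04) followed. NDUFA4 (-0.64 ± 0.17) was not DE without newborn 330 or without newborn 345. The share of citric acid cycle genes higher at birth, 6 of 29 (20.7%), was close to that of all genes (22.5%), with 2 higher at 4 months and a median of -0.06. With quantile normalization the counts were 2 and 12. MDH1 (-1.17), GOT1 (-1.28) and IDH2 (-0.81) were higher at birth and pyruvate carboxylase PC (2.29) and the kinase PDK3 higher at 4 months. PDK3 had 12.6, 15.1 and 19.2 scaled RPKM at 4 months, against 0.970, 1.41 and 1.75 at birth (3.34 ± 0.15, adjusted p = 3.20e-09), opposite to its relative PDK4. PPARGC1B, a coactivator of mitochondrial genes, had 0.736, 1.29 and 1.77 scaled RPKM at 4 months, against 4.90, 5.93 and 16.6 at birth (-2.48 ± 0.29), and mitochondrial biogenesis as a list counted 3 and 5 of 23. The share higher at birth was here also close to that of all genes.

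Genes of fat synthesis were divided. Of 23 genes of fat synthesis and adipocytes, 8 were DE higher at 4 months and 5 at birth (median 0.19). The counts were 3 and 11 without scaling, where FASN and PLIN1 were not DE. SCD, stearoyl-CoA desaturase, which makes oleic acid, had 47.8, 54.1 and 78.4 scaled RPKM at 4 months, against 0.767, 2.27 and 103 at birth. Newborn 323 alone had 103, above every older pig, and the other 5 newborns had at most 7.97 (3.68 ± 0.85, adjusted p = 0.00208). FASN, fatty acid synthase, had 24.1, 31.8 and 45.4 scaled RPKM at 4 months, against 3.94, 8.04 and 38.5 at birth, and newborn 323 again held the highest newborn value (1.80 ± 0.42). The same newborn was highest in PLIN1 (18.4 scaled RPKM), CIDEC (8.69) and PCK1 (7.94), genes of fat droplets and of glycerol synthesis in fat cells. Its summed adipocyte markers were the lowest of the 12 IB libraries, at 121 scaled RPKM, and the part of fat cells in these values was not tested. PLIN1 (2.05) and CIDEC (3.04) were DE higher at 4 months and PCK1 (-2.25) at birth. Cholesterol synthesis and uptake leaned to birth, with 2 and 7 of 20 DE (median -0.67). SQLE (-2.26) was higher at birth, and IDI1 (1.65) and FDFT1 (1.55) higher at 4 months.

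Genes of protein degradation that differed were mostly higher at 4 months. Proteasome genes counted 13 of 24 DE higher at 4 months and 0 at birth (median 0.72). With quantile normalization they counted 7 and 0. PSMD11, a lid subunit, had 100.4, 114 and 138 scaled RPKM at 4 months, against 30.01, 36.2 and 39.0 at birth (1.72 ± 0.12, adjusted p = 7.11e-08), and PSMC2 (1.32) and PSMD1 (1.28) had smaller differences. Substrate receptors of muscle ubiquitin ligases counted 15 and 3 of 27 (median 0.78). ASB2, whose ligase acts on filamin, had 331, 456 and 612 scaled RPKM at 4 months, against 8.68, 19.8 and 50.6 at birth, and FBXO40, which targets an insulin receptor substrate, had 57.7, 87.1 and 115 scaled RPKM at 4 months, against 1.27, 3.32 and 16.9 at birth. The ages did not overlap in either, and newborns 323 and 330 were the highest newborns in FBXO40. ASB11 (2.17), ASB5 (1.43) and KLHL38 (1.96) followed. TRIM63, the atrophy ligase MuRF1, had 176, 237 and 385 scaled RPKM at 4 months, against 28.5, 71.6 and 103 at birth (1.93 ± 0.30), while its relative TRIM55 was higher at birth (-1.07). The list of atrophy and FoxO targets as a whole counted 6 and 4 of 21, with FOXO4 (1.79) among the first.

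Autophagy and lysosome genes counted 21 DE higher at 4 months and 1 at birth of 50 (median 0.51). OPTN, an autophagy receptor, had 83.2, 154 and 182 scaled RPKM at 4 months, against 3.79, 11.5 and 18.4 at birth, without overlap (3.74 ± 0.33, adjusted p = 7.70e-07). SQSTM1 (1.28), ATG4D (1.503) and MAP1LC3B (1.09) also were higher at 4 months and CTSL (-1.08) higher at birth. Without scaling 1 and 3 proteasome genes, 5 and 8 ligase receptors and 2 and 18 autophagy genes were DE higher at 4 months and at birth, so that the higher calls of these lists hold relative to the other genes only. PSMC2, PSMD1, ASB5, SQSTM1 and MAP1LC3B were not DE without scaling, and CTSL not with quantile normalization. Heat shock and unfolded protein response genes counted 14 and 3 of 41 (median 0.17), and their median was below that of all genes with quantile normalization (11 and 6). Without scaling they counted 9 and 19, and without 903 and 503 autophagy and lysosome genes counted 19 and 2. HSPA2 (2.39), HSPH1 (2.35), HSPB8 (1.92) and HSPA8 (1.75) were higher at 4 months, and the mitochondrial chaperone HSPA9 (-0.86) and DNAJA4 (-1.01) higher at birth.

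Growth genes that differed were mostly higher at birth. In the IGF and insulin system, 3 of 27 were DE higher at 4 months and 9 at birth (median -0.47). IGFBP3, a carrier of insulin-like growth factors, had 0.457, 0.667 and 1.25 scaled RPKM at 4 months, against 4.18, 7.32 and 12.5 at birth (-3.22 ± 0.26, adjusted p = 4.26e-07). The receptor IGF1R (-1.48), IGF1 (-0.87) and the glucose transporters SLC2A1 (-2.52) and SLC2A3 (-2.12) were higher at birth as well. IGF1 was not DE with quantile normalization, nor was SLC2A1 in the test on recovered reads. SLC2A1 had 6.47 to 13.7 scaled RPKM in newborns 431, 503 and 504 and at most 1.52 in the other 3, the reverse of LDHA, PKM and PYGM. Downstream of the receptors, IRS1 had 14.4, 21.4 and 27.2 scaled RPKM at 4 months, against 3.05, 7.56 and 9.43 at birth (1.69 ± 0.25), and with PIK3R1 (1.95) and GRB10 (0.88) it was higher at 4 months, but GRB10 was not DE with quantile normalization or without scaling. Imprinted growth genes counted 11 of 17 DE higher at birth and 1 higher at 4 months (median -1.30). PLAGL1, an imprinted zinc finger factor, had 0.884, 1.53 and 1.95 scaled RPKM at 4 months, against 3.84, 10.9 and 29.5 at birth (-2.75 ± 0.42), and MAGEL2 (-2.65), PEG3 (-1.63) and MEST (-1.30) followed DLK1. Gene IDs were counted, and DLK1 was present under more than 1 of them.

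Of 44 cell cycle genes, 4 were DE higher at 4 months and 12 at birth (median -0.73), the last a share of 27.3%, against 22.5% of all genes. The counts were 6 and 9 with quantile normalization. HMGB2, a chromatin protein of dividing cells, had 3.30, 3.99 and 4.83 scaled RPKM at 4 months, against 6.43, 14.6 and 25.1 at birth (-1.69 ± 0.27), and CCND1 (-1.20), CCND2 (-1.47) and MYBL2 (-1.45) were higher at birth. MKI67, the proliferation marker, was low at both ages, with 0.1504, 0.241 and 0.383 scaled RPKM at 4 months, against 0.188, 0.816 and 2.13 at birth. Its ranges overlapped, and its DE call (-1.36 ± 0.41) was lost without 889, 907 or 909, without newborn 323, 330 or 503, without 903 and 503 together, with quantile normalization and in the test on recovered reads. RFC5, of the replication clamp loader, was higher at 4 months (1.29), though not DE without scaling. Among 10 cell cycle inhibitors, 4 were DE in one direction and 4 in the other. CDKN2C, p18, had 13.6, 16.5 and 19.9 scaled RPKM at 4 months, against 1.38, 3.37 and 4.85 at birth (2.47 ± 0.28), whereas GADD45G (-2.84) and TP73 (-2.62) were higher at birth. Translation was mixed, with 11 and 5 of 39 genes (28.2% and 12.8%, against 21.0% and 22.5% of all genes). The counts were 7 and 9 with quantile normalization and 12 and 3 without 903 and 503. EEF2K, which inhibits elongation, had 34.8, 36.6 and 42.4 scaled RPKM at 4 months, against 5.05, 7.002 and 14.1 at birth (2.32 ± 0.21), and MYC (-1.96), the initiation factor EIF4A1 (-1.65) and the ribosomal protein RPL3 (-1.52) were higher at birth. Cytosolic ribosomal protein genes counted 5 and 4 of 27 (18.5% and 14.8%) and mitochondrial ones 8 and 4 of 44 (18.2% and 9.1%). These shares lay below those of all genes. RPLP1 was higher at 4 months (1.13) except with quantile normalization, where its sign was reversed, and was not DE without scaling. With quantile normalization the counts were 0 and 6 for cytosolic and 2 and 6 for mitochondrial ribosomal proteins. Among amino acid genes (8 and 10 of 32, and 5 and 10 with quantile normalization), the transporter subunits SLC7A8 (3.81) and SLC3A2 (1.95) were higher at 4 months.

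The extracellular matrix genes that differed were almost all higher at birth. Of 25 collagen genes, 21 were DE higher at birth and 0 higher at 4 months (median -1.55). COL1A1, of type I collagen, had 37.0, 53.2 and 97.5 scaled RPKM at 4 months, against 283, 522 and 657 at birth. The nearest animals of the 2 ages were 2.90-fold apart (-3.11 ± 0.25, adjusted p = 3.12e-07). COL1A2 (-2.43 ± 0.19), COL3A1 (-1.55 ± 0.21) and the basement membrane chain COL4A1 (-1.32 ± 0.14) also had no overlap. COL12A1 (-2.78 ± 0.47) reached 5.99 in animal 903 alone among the older pigs. Matrix proteins and enzymes counted 39 of 55 DE higher at birth and 2 at 4 months (median -1.43). FBN2, the fibrillin of developing microfibrils, had 0.0745, 0.162 and 0.197 scaled RPKM at 4 months, against 1.92, 2.43 and 4.43 at birth (-3.48 ± 0.22). ELN, elastin, had 7.06, 8.12 and 10.4 scaled RPKM at 4 months, against 35.3, 47.2 and 82.0 at birth (-2.52 ± 0.19), and its cross-linker LOX differed by -2.23. THBS1, thrombospondin, had 1.82, 2.57 and 4.08 scaled RPKM at 4 months, against 6.04, 21.3 and 82.2 at birth, newborns 431, 503 and 504 being the highest 3 (-3.01 ± 0.58). SPARC (-0.67) and fibronectin FN1 (-0.97) had smaller differences. The 2 higher at 4 months were the protease ADAMTS8 (3.11 ± 0.38) and the collagen hydroxylase subunit P4HA2 (1.20 ± 0.16). P4HA2 was not DE without scaling. The summed markers of fibroblasts, which make these proteins, lay at 449 to 611 scaled RPKM at 4 months, against 981 to 2034 at birth. Their part in the result was not tested.

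**Figure D4:**
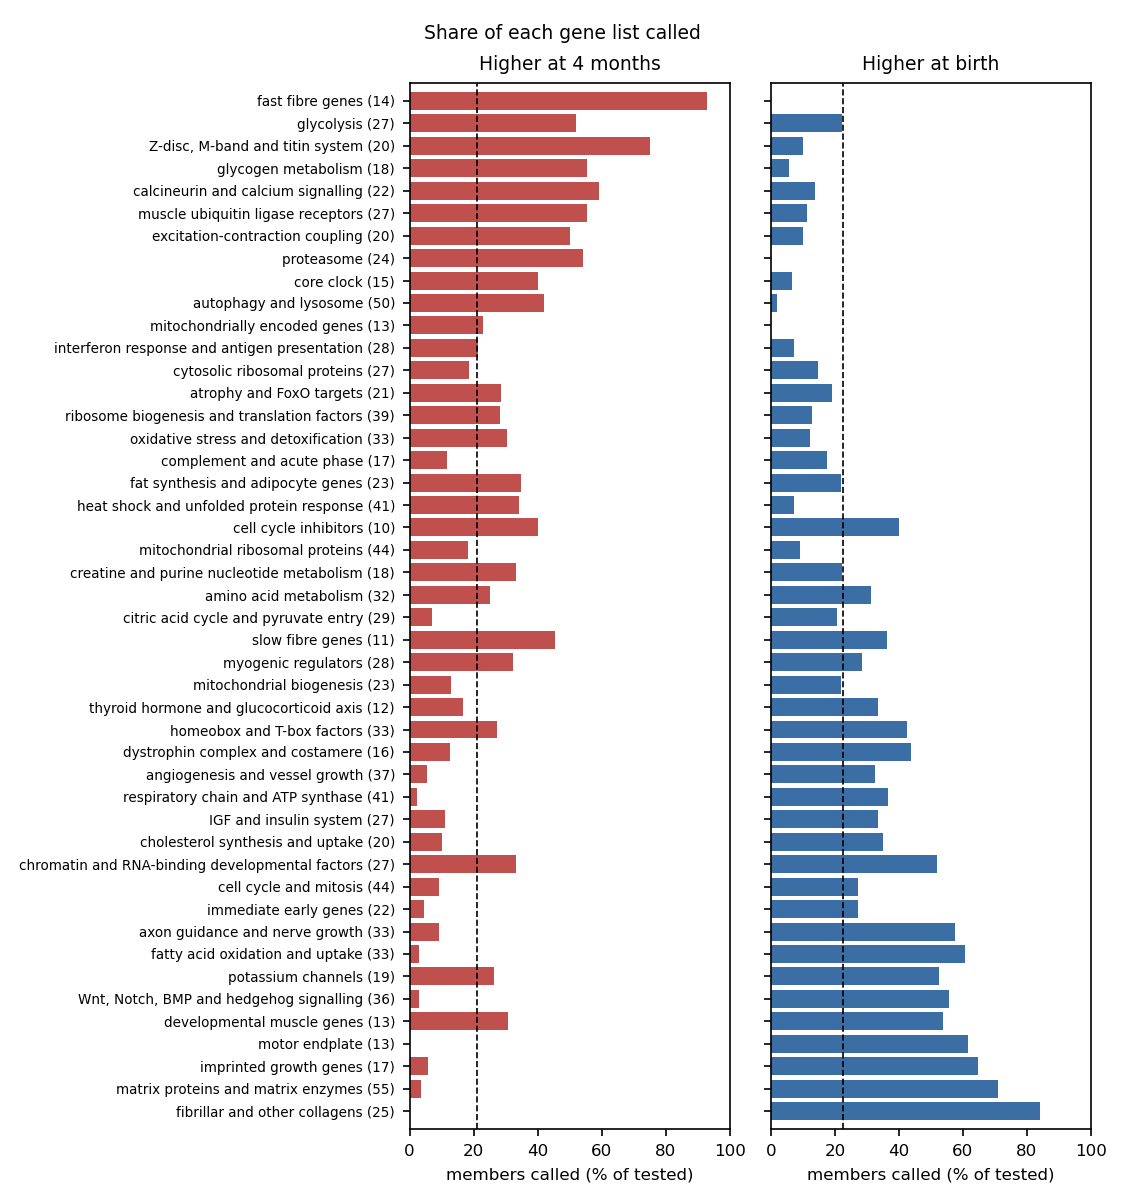
Percent of the tested members of each gene list that were DE (called) higher at 4 months, in the left panel, and higher at birth, in the right panel, with the number tested in brackets and the lists in order of their median log2 difference. Dashed lines mark the shares over all 11634 genes, 21.0% and 22.5%. Fast fibre genes reach 92.9% in the left panel and collagens 84.0% in the right. With quantile normalization the medians of the mitochondrially encoded, heat shock, creatine, amino acid, citric acid cycle and both ribosomal protein lists fall below that of all genes.

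Signalling genes that differed were mostly higher at birth. Wnt, Notch, BMP and hedgehog genes counted 1 and 20 of 36 DE higher at 4 months and at birth (median -0.84). The Wnt receptor FZD4 had 4.999, 5.35 and 6.46 scaled RPKM at 4 months, against 12.8, 20.2 and 24.6 at birth (-1.76 ± 0.16), FZD9 and FZD10 differed by -2.53 and -1.66, and the 1 gene higher at 4 months was the ligand WNT5B (1.05), which was not DE without scaling. Homeobox and T-box genes were divided (9 and 14 of 33, median -0.44), with 7 and 8 under quantile normalization. HOXC10, which marks position along the body axis, had 27.4, 36.7 and 54.4 scaled RPKM at 4 months, against 0.857, 5.18 and 9.40 at birth (3.25 ± 0.44, adjusted p = 2.91e-05). HOXD1 (3.11), HOXC8 (2.79) and LBX1 (2.61), which guides muscle precursors, were also higher at 4 months. TWIST2 (-2.64), HOXA5 (-1.73) and HOXA3 (-1.75) were higher at birth, so that members of the HOX clusters moved in both directions. Chromatin and RNA-binding factors counted 9 and 14 of 27 (median -0.70), and 5 and 12 with quantile normalization. EZH2, the Polycomb methyltransferase, had 0.248, 0.397 and 0.526 scaled RPKM at 4 months, against 0.795, 1.59 and 2.90 at birth (-1.87 ± 0.29), and DNMT3A (-1.25) and the splicing factor RBFOX2 (-1.68) had the same direction. The cold-shock protein YBX3 was higher at 4 months (1.94), with 2158, 2849 and 3132 scaled RPKM at 4 months, against 531, 618 and 1195 at birth.

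Vessel and nerve genes that differed were mostly higher at birth. Angiogenesis genes counted 2 and 12 of 37 (median -0.45). VEGFA had 6.20, 13.2 and 25.3 scaled RPKM at 4 months, against 24.2, 37.6 and 62.5 at birth, newborns 431, 503 and 504 being the highest, and its receptor KDR (-1.42), ANGPTL2 (-2.83) and HIF1A (-1.21) were higher at birth (-1.49 ± 0.31 for VEGFA, whose groups overlapped at 1 older pig). NOS1, the nitric oxide synthase of muscle, and EGLN1, which hydroxylates HIF proteins, were higher at 4 months (2.57 and 1.44). Endothelial markers summed to 117 to 138 scaled RPKM at 4 months, against 152 to 193 at birth. Axon guidance and nerve growth genes counted 3 and 19 of 33 (median -0.76), and 3 and 11 of 32 with quantile normalization. The repellent SEMA3A had 0, 0.0482 and 0.0855 scaled RPKM at 4 months, against 0.466, 0.642 and 1.03 at birth (-2.43 ± 0.29), and the netrin receptor UNC5B differed by -1.82. Schwann cell markers summed to 14.3 to 70.4 scaled RPKM at 4 months, against 37.4 to 167 at birth, with 503 the highest newborn at 167 and the next at 58.5. The part of these cell types in the results was not tested.

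Markers of other cell types varied by age and by library. The 7 defining genes of skeletal fibres were all DE higher at 4 months and summed to 151999 to 198535 scaled RPKM at 4 months, against 38083 to 103714 at birth, and no sample lacked them. Their counts were 2 and 1 with quantile normalization, 3 and 0 without scaling and 6 and 0 without 903 and 503, against 7 and 0 in all libraries as scaled. Erythroid markers, 5 of 8 DE higher at birth, summed to 131 to 298 scaled RPKM at 4 months, against 788 to 4362 at birth, where 503 held the highest value and the next newborn had 1105. HBB, beta globin, had 56.8, 83.1 and 139.6 scaled RPKM at 4 months, against 357, 499 and 1967 at birth, without overlap (-2.78 ± 0.38). Neutrophil markers, 5 of 7 DE higher at birth, summed to 0.455 to 2.33 scaled RPKM at 4 months, against 1.71 to 165 at birth, again with 503 highest and 13.0 in the next. S100A9 (-3.72 ± 0.96) was not DE in the test on recovered reads. T and natural killer cell markers, 8 of 12 DE higher at 4 months, summed to 14.1 to 409.7 scaled RPKM at 4 months, against 2.38 to 100.4 at birth. CD8B alone held 383 of the 409.7 in 903 and 94.1 of the 100.4 in 503. Without 903 and 503 the highest sums were 22.3 and 6.996, still apart. Cartilage and bone markers, 3 of 5 DE higher at birth, summed to 1.28 to 4.66 scaled RPKM at 4 months, against 5.09 to 88.2 at birth, the next after 503 having 14.1. RETN, resistin, and IBSP, bone sialoprotein, were at 0 in all 6 older pigs and highest in 503 (8.36 and 10.1 scaled RPKM), and neither was DE. Adipocyte markers summed to 174 to 359 scaled RPKM at 4 months, against 121 to 178 at birth, macrophage markers to 31.7 to 89.6 scaled RPKM at 4 months, against 28.8 to 71.7 at birth, satellite cell markers to 38.0 to 59.0 scaled RPKM at 4 months, against 40.8 to 105 at birth and smooth muscle and pericyte markers to 3400.4 to 5144 scaled RPKM at 4 months, against 2376 to 4059 at birth. The ranges overlapped between ages in these 4 types. Of 15 listed B and plasma cell markers, 7 had a gene ID and 3 were tested, of which 1 was DE higher at birth. The sums over the markers found were low, at 1.24 to 2.02 scaled RPKM at 4 months, against 1.71 to 4.82 at birth. They do not cover the markers without an ID. The paper names several immunoglobulin genes among those most upregulated in growing pigs, and these sums cannot decide how such genes changed.

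Genes of the interferon response and antigen presentation counted 6 and 2 of 28 (median 0.40, and 0.03 without 903 and 503). Quantile normalization gave 11 and 1, and leaving out 903 and 503 gave 6 and 1 of 29. With all libraries as scaled, the share higher at 4 months, 21.4%, was close to that of all genes (21.0%). SLA-DQB1, of the class II histocompatibility complex, had 32.5, 42.6 and 67.7 scaled RPKM at 4 months, against 11.2, 13.1 and 17.1 at birth (1.66 ± 0.17). Complement and acute phase genes counted 2 and 3 of 17, shares of 11.8% and 17.6% and both below those of all genes. MX2 was higher at birth (-1.43 ± 0.40) with all libraries and not DE without those 2 or with quantile normalization. Of 15 clock genes, 6 were DE higher at 4 months and 1 at birth (median 0.59), and the hours of sampling are not given in the sources used here. They counted 7 and 2 without 903 and 503 and 2 and 3 without scaling, where BMAL1 was not DE. BMAL1 (1.52), NFIL3 (2.32) and BHLHE41 (1.81) were higher at 4 months and PER1, with 10.5, 18.2 and 24.4 scaled RPKM at 4 months, against 26.6, 47.7 and 91.1 at birth, higher at birth (-1.38 ± 0.31). Immediate early genes counted 1 and 6 of 22 (median -0.74), the last a share of 27.3%, against 22.5% of all genes. Among them KLF4 (-1.95), KLF6 (-1.79) and CCN1 (-1.81) were higher at birth. FOS had 11.1, 38.5 and 95.1 scaled RPKM at 4 months, against 19.5, 29.0 and 392 at birth and ATF3 had 12.5, 74.8 and 189.9 scaled RPKM at 4 months, against 15.0, 114 and 626 at birth, both highest in newborn 431 and not DE. Thyroid and glucocorticoid genes counted 2 and 4 of 12 (2 and 2 without 903 and 503), with the retinoid receptor RXRG, which pairs with thyroid receptors, at 37.0, 45.4 and 50.8 scaled RPKM at 4 months, against 1.66, 3.20 and 8.65 at birth (3.64 ± 0.30). In oxidative stress and detoxification (10 and 4 of 33, and 6 and 5 with quantile normalization), ALDH1A1 (2.68) and KEAP1 (2.34) were higher at 4 months and GSTM3 (-1.76) at birth.

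The genes of over 20 scaled RPKM whose 95% interval stayed closest to 0 were the mitochondrial protease AFG3L2, with 31.5, 33.7 and 37.2 scaled RPKM at 4 months, against 30.2, 34.1 and 37.4 at birth (log2 difference 0.01 ± 0.10), HNRNPUL1 (-0.05 ± 0.09), GATD1 (0.02 ± 0.11), the calcium uniporter MCU (0.02 ± 0.12) and the autophagy protein WDR45 (0.00 ± 0.12). Of 6 tested genes often used as references in quantitative PCR, 1 was DE higher at 4 months and 3 at birth. GAPDH differed by 2.77, ACTB by -0.70, YWHAZ by -1.03 and TOP2B by -0.86 ± 0.20, while the other 2, among them GUSB (-0.40 ± 0.21), were not DE. ACTB had 121, 138 and 174 scaled RPKM at 4 months, against 208, 233 and 262 at birth, with no overlap.

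Whether the age difference of IB pigs differed from that of IBxDU pigs was tested gene by gene as an interaction over the 24 libraries, scaled together. Of 12128 genes, 3 had an adjusted p below 0.05 (0.0247%), and 1651 had an unadjusted p below 0.05 (13.6%). In the IBxDU pigs alone, 2457 of 11994 genes (20.5%) were DE higher at 4 months and 2248 (18.7%) higher at birth. ABRA, an actin-binding protein of striated muscle, had 74.6, 107 and 164 scaled RPKM in IB pigs at 4 months, against 132, 172 and 417 in IB newborns. In IBxDU pigs it had 102, 232 and 440.4 at 4 months, against 15.5, 62.4 and 103 at birth. It was thus lower at 4 months in IB and higher in IBxDU, a difference of -2.99 ± 0.54 between the log2 age differences (adjusted p = 0.0456). SPHK1, sphingosine kinase, had 0.602, 0.776 and 1.04 at 4 months, against 1.20, 1.66 and 2.16 at birth in IB, and 0.941, 1.23 and 1.61 against 0.630, 0.923 and 1.11 in IBxDU, with an interaction of -1.42 at the same adjusted p. The gene ENSSSCG00000016982, which has no symbol here, was higher at 4 months in both, with log2 age differences of 1.72 in IB and 0.70 in IBxDU. UCHL3, a deubiquitinating enzyme, and LRIG1, which restrains growth factor receptors, came next and did not pass (each adjusted p = 0.0807). The interaction of UCHL3 was 0.99 and that of LRIG1 -1.42. The DE call of ABRA in IB alone was lost without 905, without 909, without newborn 504, without 903 and 503 together and in the fit of all 24 libraries. For the interaction, leaving out any single IB library gave 0 genes past the adjusted threshold, except for newborns 323 (6 genes) and 330 (5 genes), and the test without scaling gave 0. Over 99% of the reads lay in listed genes in 2 of the 12 IB libraries and in 6 of the 12 IBxDU libraries, and the part of this in the interaction was not tested.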

How the data were processed

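Total RNA of the LD was sequenced as paired-end mRNA libraries by the authors, aligned to the pig genome (Sscrofa10.2, from the submitters' processing notes) and deposited as 1 table of RPKM per Ensembl gene ID, 1 column per library, computed by the authors with the CLC Genomics Workbench. The table held 22861 genes, 17846 of them above 0 in at least 1 of 24 libraries. Gene symbols were matched for 11863 IDs.

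The deposited RPKM steps gave whole reads in all 17846 of these genes (within 0.001 of a whole number). Library totals were therefore read from these steps, 21734611 to 35894968 in IB libraries. Values were divided by a scaling factor per library, the mean log ratio to the average library over genes above 0.5 RPKM with 30% trimmed at each end. Genes with a mean above 0.5 scaled RPKM at either age were tested with limma (version 3.58.1, R 4.3.3; moderated, with a trend) on log2(scaled RPKM + 0.1), which understates the change of low genes, with Benjamini-Hochberg adjustment. Library make-up was tested with exact two-sided permutation. The test was run on simulated data before use. The simulation raised and lowered equal numbers of genes, so it cannot show whether the scaling suits these libraries.

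Libraries were grouped by the labels' genotype and age, and no labelled column was left out. The members and the 60 gene lists were chosen with earlier results of these data known, so that neither is independent evidence. Named genes were the 15 largest non-overlapping differences in each direction, the 10 most abundant genes at each age, members of the lists (the 3 largest called in each direction, the most abundant, and those needed to say what a list holds), the 5 smallest interaction p-values, and the 5 most even genes above 20 scaled RPKM; some members of the lists are not reported here. Alternatives were other scalings, filters and pseudocounts, limma without its trend, voom on the recovered reads, a fit of all 24 libraries, and leaving libraries out. The newborns include littermates, which the test treats as independent.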

Additional observations from a re-analysis of the deposited data

Results flagged for a closer look

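Of 562 groups of 6 animals examined for a single value set apart from the other 5 by a gap past Dixon's 95% critical value, 37 held one (6.58%), and chance alone gives about 1 in 20. The values below are scaled RPKM, and their causes were not tested. Far above or below here means past that gap, judged against the spread of the group, and need not be a large difference in level. Pig 903, aged 4 months, was far above its group for CD8B (383), COL12A1 (5.99) and TEAD4 (56.7) and far below it for CYCS (170.1), JPH1 (57.6), MYOT (766), RFC5 (17.0), SNTB1 (26.9) and TWIST2 (0.0435). Pig 816, aged 4 months, was far above its group for PDK4 (41.4) and far below it for NDUFA4 (822). Pig 889, aged 4 months, was set apart above its group for MCU (46.3, against 39.7 to 41.5 in the other 5) and far below it for LAMA2 (11.96). Pig 905, aged 4 months, was far above its group for MYH7 (64.3). Pig 907, aged 4 months, was far above its group for COMP (0.571) and far below it for FBN2 (0.0745) and MEST (0.471). Newborn 323 was far above its group for CIDEC (8.69), HSPA9 (233), PC (15.9), PCK1 (7.94) and PLIN1 (18.4) and far below it for MYPN (43.7). Newborn 345 was far above its group for MYOZ2 (1191) and far below it for ADAMTS8 (0.364). Newborn 431 was far above its group for FOS (392) and SOWAHB (0.432) and far below it for ANGPTL4 (4.03) and TWIST2 (0.314). Newborn 503 was far above its group for CD8B (94.1) and HBB (1967). Newborn 504 was far above its group for MAGEL2 (2.32). Among the summed markers of other cell types, pig 903 stood apart for T and NK cells (409.7), and newborn 503 for erythroid (4362), T and NK cells (100.4), Schwann cells (167) and cartilage and bone (88.2). Most of both T and NK cell sums was CD8B alone, with 383 in 903 and 94.1 in 503.

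The age difference, 4 months minus birth, differed between IB and IBxDU pigs by the interaction test in 3 genes, with log2 differences of IB minus IBxDU for SPHK1 (-1.42), ABRA (-2.99) and ENSSSCG00000016982 (1.02). Each was lost when most single IB libraries were left out.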

How the results depend on the processing

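Of the 248 named genes that were DE, 210 kept direction and call under every alternative run, and 5 (CYTB, ABRA, ACTN2, MKI67 and NDUFA4) lost the call when single libraries were left out. Without scaling, on RPKM as deposited, 664 genes were DE higher at 4 months and 6678 higher at birth. The other scalings, filters, pseudocounts and tests gave 2259 to 2577 and 2226 to 3133 at the same limits, leaving out single libraries gave 2329 to 2474 and 2439 to 2624, and limits on the adjusted p alone gave 3246 and 3417. Log2 differences that changed sign were, without scaling and then with quantile normalization, COX3 (-0.067 and -0.14), ATP6 (-0.55 and -0.96), COX1 (-0.57 and -0.69), COX2 (-0.36 and -0.63), ND1 (-0.29 and -0.74) and CYTB (-0.14 and -0.65), with quantile normalization RPLP1 (-0.18), and with single libraries left out FOS (0.05 without 903 and 0.35 without newborn 431) and CD8B (-0.70 without 903, against 2.69 without newborn 503). The cause was not tested. Quantile normalization ended 15 calls (ACTA1, MYL11, TNNC2, MYL1, MYOZ1, MYH8, CDH15, TNNT1, MYL3, DYSF, IGF1, GRB10, MKI67, CTSL and MX2), no scaling 20 (MYL11, MYBPH, CDH15, MYL3, DYSF, CACNA1S, JPH1, GRB10, RFC5, P4HA2, PLIN1, FASN, RPLP1, PSMC2, PSMD1, ASB5, SQSTM1, MAP1LC3B, BMAL1 and WNT5B), and voom on recovered reads those of NPG1, SLC2A1, MKI67 and S100A9. The interaction gave 0 genes without scaling, 0 with a filter at 1 RPKM and 0 to 6 with single libraries left out, against 3 in all. The differences in library make-up ranged from -1633 to -1399 genes and from 6.55 to 8.49 percentage points when single libraries were left out. No paired analysis was possible because the 2 ages share no animal numbers. Depth limits the lowest genes, and the spread among 6 animals limits the rest. The floor of 3 reads per library served only to bound the difference of genes at 0 in all animals of an age.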
